A study of Mus musculus with 19 samples.

Results

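The 9 EphA receptor genes (Epha1 to Epha8 and Epha10) were taken by gene symbol from 3 deposited comparison tables of the mouse retina, which together list 35734 genes. All 9 were listed and tested in all 3 tables. In the gain-of-function experiment, eyes of wild-type CD1 pups were electroporated in vivo on postnatal day 1 with plasmid DNA at 3 µg/µl, and cells sorted for green fluorescence were combined to 150000 cells per replicate. Sample labels place 5 Pou3f1 and 4 Gfp libraries at 14 days after electroporation, and 3 Pou3f1 and 3 Gfp libraries at 48 h, while their protocol text gives the later time as postnatal day 14. Loss of function was measured in whole C57B6J retinas at E17.5, with 2 Pou3f1 knockout and 2 heterozygous libraries, so the comparison group at E17.5 carries 1 mutant copy as well. The sources used here do not give the promoter that drives the plasmid or the part of Pou3f1 that is deleted. Pooling is stated only for the sorted cells, and p-values measure the spread between these libraries, which may be partly technical.

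EphA receptors are receptor tyrosine kinases that bind ephrin-A ligands anchored to the surface of neighbouring cells, and contact between them often makes a growth cone turn away. In the retina and its targets, EphA receptors and ephrin-A ligands are laid out in opposing gradients, and these gradients sort the axons of retinal ganglion cells along the nasal-temporal axis. Pou3f1 encodes a POU family transcription factor, and the series concerns ganglion cell axons that project to the opposite side of the brain.

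Long-lasting Pou3f1 overexpression and Pou3f1 loss went with opposite changes in Epha3 and Epha4, and in none of the other 7 genes, counting changes at an adjusted p under 0.05. At 14 days 5 of 9 receptors rose (Epha3, Epha4, Epha5, Epha6 and Epha7) and 0 fell. At 48 h 0 rose and 1 fell (Epha8). In knockout retinas 0 rose and 4 fell (Epha3, Epha4, Epha8 and Epha10). Epha1 and Epha2 passed in no comparison. All fold changes and adjusted p here are those of the authors' deposited tables (DESeq2, Benjamini-Hochberg over the genes tested). The fold changes are shrunken toward 0, so they may understate a change, and more so where the standard error is large. This is not limited to genes with few reads. Pou3f1 in the 48 h table had a mean normalized count of 37279 and a standard error of 0.26, near that table's largest (0.296). Ratios to the Gfp or heterozygous level come from these values and may understate a change too.

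The tables give 1 value per gene and comparison, and none per library, which leaves each library's depth and each group's spread unknown. Pou3f1 itself was higher in Pou3f1 cells by 5.57 ± 0.27 (log2 fold change ± standard error, SE) at 14 days and by 0.91 ± 0.26 at 48 h in the authors' deposited tables (adjusted p = 3.40e-88 and 0.0233). In knockout retinas the authors' deposited table gives a log2 fold change of -0.69 for Pou3f1, or 0.621 of the heterozygous level (adjusted p = 1.98e-08). No table header names a direction: positive was read as higher in Pou3f1 cells, and at E17.5 as higher in knockout retinas, because Pou3f1 then moves as labelled. The E17.5 table's name puts the heterozygote first, so the sign of each E17.5 value, and the opposite changes of Epha3 and Epha4, rest on the level of Pou3f1 alone. That name also gives a different embryonic day, and the age in the sample labels is used. All 7 general retina markers (such as Pax6, Rax and Six3) were listed in each table, with mean normalized counts of 1169 to 23982 at 14 days and 2755 to 15296 at 48 h.

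The 9 genes lie on 5 chromosomes of the mouse GRCm38 (mm10) build in the GENCODE M21 annotation and fall into long and short genes. Epha6 (chr16:59653483-60605531, minus strand) spans 952 kb, Epha5 (chr5:84054761-84417382, minus) 363 kb and Epha3 (chr16:63543534-63864175, minus) 321 kb. Epha7 (chr4:28813131-28967499, plus) spans 154 kb and Epha4 (chr1:77367185-77515088, minus) 148 kb. The other 4 are short: Epha10 (chr4:124880899-124917800, plus) spans 36.9 kb, Epha2 (chr4:141301240-141329384, plus) 28.1 kb, Epha8 (chr4:136929419-136956816, minus) 27.4 kb and Epha1 (chr6:42358487-42373268, minus) 14.8 kb. Their transcripts are distinct at the length a read is matched: at most 0.0699% of the 31-base words in the transcripts of any 1 member occur in those of another member. Epha1 is the exception with respect to other genes, since 8.41% of its words occur elsewhere and its exons overlap those of Zyx on the opposite strand. Exons of Epha6 overlap Gm9017, and exons of Epha10 overlap 1700125G02Rik, each on the opposite strand. The sources used here do not say whether counting used the strand.

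The upstream sequences of 4 members are printed because their transcripts carried the main patterns: Epha3 and Epha4 rose at 14 days and fell in knockout retinas, Epha5 changed differently at the 2 times, and Epha8 fell at 48 h and in knockout retinas. Each is the 250 bases before the gene's start in RefSeq (GRCm38.p6), 5′ to 3′ along the gene's strand, which is minus for all 4. They are chr16:63864176-63864425 for Epha3, chr1:77515089-77515338 for Epha4, chr5:84417383-84417632 for Epha5 and chr4:136956817-136957066 for Epha8. Capitals mark the homeodomain core TAATTA.
Epha3: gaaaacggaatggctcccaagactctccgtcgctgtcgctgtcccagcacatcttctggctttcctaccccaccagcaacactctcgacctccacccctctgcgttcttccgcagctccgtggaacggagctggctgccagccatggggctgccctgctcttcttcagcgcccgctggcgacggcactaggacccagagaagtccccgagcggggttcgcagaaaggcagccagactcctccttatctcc
Epha4: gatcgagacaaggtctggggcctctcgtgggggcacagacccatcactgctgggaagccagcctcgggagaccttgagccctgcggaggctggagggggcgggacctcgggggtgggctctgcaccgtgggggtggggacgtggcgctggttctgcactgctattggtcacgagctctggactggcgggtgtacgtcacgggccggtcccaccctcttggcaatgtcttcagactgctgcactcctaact
Epha5: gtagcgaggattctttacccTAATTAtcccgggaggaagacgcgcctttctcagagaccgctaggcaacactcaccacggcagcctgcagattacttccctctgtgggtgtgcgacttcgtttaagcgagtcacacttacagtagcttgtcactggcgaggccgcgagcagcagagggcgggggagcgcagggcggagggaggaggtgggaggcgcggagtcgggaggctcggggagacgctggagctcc
Epha8: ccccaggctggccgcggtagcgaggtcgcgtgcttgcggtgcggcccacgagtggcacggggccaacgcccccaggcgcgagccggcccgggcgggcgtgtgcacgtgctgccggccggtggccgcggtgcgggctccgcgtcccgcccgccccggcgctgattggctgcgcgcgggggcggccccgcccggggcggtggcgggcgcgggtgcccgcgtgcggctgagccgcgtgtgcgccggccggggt
The octamer ATGCAAAT, the classical POU factor motif, was searched on both strands and occurred in 0 of the 10 upstream windows of the 9 members (Epha7 has 2 start sites), while 1.60% of 32851 mouse windows of the same length hold it. TAATTA, which reads the same on both strands, occurred in 1 of the 10 windows, that of Epha5, where it starts 230 bases before the gene's start, and in 4.84% of all windows. The 10 windows hold 9 to 46 CpG dinucleotides, against a median of 6 and a 90th percentile of 25 over all windows. Epha8 has the most (46, at 84.0% G and C), 1 Epha7 window has 25, and Epha1 and Epha2 have 9 each. These are descriptions of letters in 1 window per start site and say nothing of binding elsewhere.

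The level of each receptor could be described only as the mean over both groups of a comparison. The authors' deposited tables list mean normalized counts (reads divided by size factors), which were divided here by the length of the longest transcript in kb. At 14 days Epha7 was highest, with 349 mean normalized counts per kb, followed by Epha4 (292), Epha5 (258), Epha10 (179), Epha3 (149), Epha8 (102), Epha2 (38.0), Epha6 (9.84) and Epha1 (2.13). At 48 h Epha8 was highest, with 1333 mean normalized counts per kb, followed by Epha5 (411), Epha3 (292), Epha2 (260), Epha4 (157), Epha7 (47.2), Epha10 (41.2), Epha6 (5.29) and Epha1 (2.54). The range from the highest to the lowest member was 164-fold at 14 days and 525-fold at 48 h. The spread over libraries is unknown, so neighbours in either order cannot be told apart, and since the tables were normalized separately, values are ranked only within a time. Epha6 and Epha1 stood at the bottom both times, with mean normalized counts of 38.7 and 6.98 at 14 days in the authors' deposited table, and their 14 day fold changes have the largest SE of the 9 genes.

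**Figure D1:**
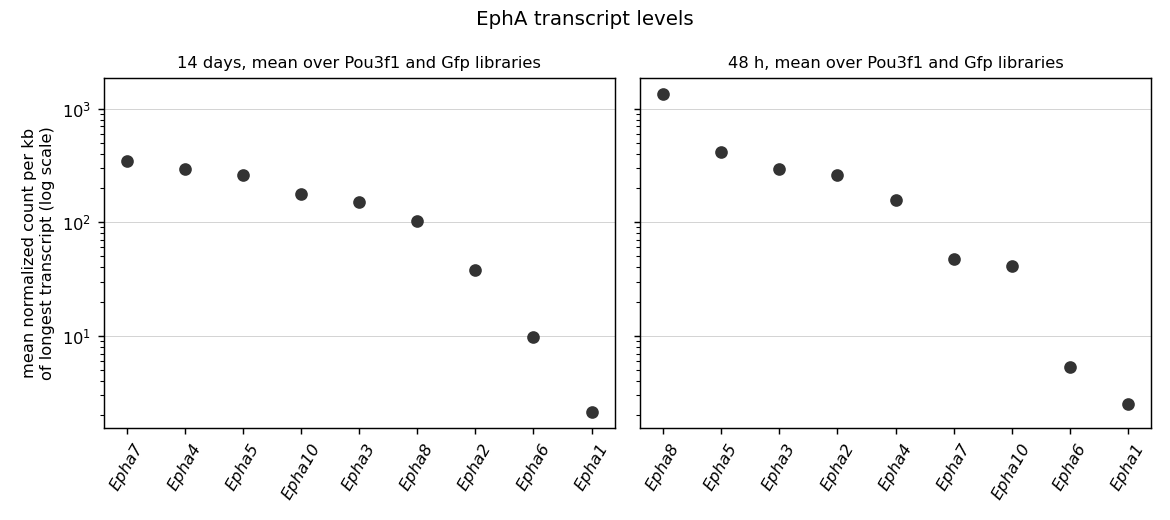
Mean normalized count per kb of longest transcript (log scale) for the 9 EphA genes, ordered from high to low at 14 days (left) and at 48 h (right); each point is 1 mean over Pou3f1 and Gfp libraries, with no error available. Epha7 (349) leads at 14 days and Epha8 (1333) at 48 h, and Epha6 and Epha1 are lowest in both.

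The 14 day comparison asks what Pou3f1 does to these genes once the retina has formed. Of 9 EphA receptors 5 rose, 0 fell and 4 did not pass, where 11.5% of 17789 tested genes rose and 9.21% fell. The median log2 fold change was 0.34 over the 9 receptors and -0.01 over all tested genes. Epha3, which binds ephrin-A5 and repels axons, rose by 0.91 ± 0.10, or 1.88-fold, with the smallest adjusted p of the 9 in the authors' deposited table (their adjusted p = 8.99e-16, 95% interval 0.71 to 1.12). Only 2.98% of tested genes had a larger log2 fold change than Epha3.

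Epha6 and Epha5, whose transcripts are known to form nasal-low, temporal-high gradients across the mouse ganglion cell layer, also rose. The authors' deposited table gives Epha6 the largest fold change of the 9, 1.14 ± 0.30 or 2.21-fold (adjusted p = 0.00168), but at a mean normalized count of 38.7 its interval is wide (0.56 to 1.72). For Epha5 the authors' deposited table gives 0.58 ± 0.13 (adjusted p = 0.000211), at a mean normalized count of 1890. Epha4, which binds ephrins of both the A and the B class, rose by 0.41 ± 0.12, or 1.33-fold, in the authors' deposited table (their adjusted p = 0.00590). Epha7 rose least, by 0.34 ± 0.12, or 1.27-fold, in the authors' deposited table (their adjusted p = 0.0246). The call for Epha7 ended when fold changes were centred on genes of like span (adjusted p = 0.0622), an alternative chosen after seeing the data. It also ended at an adjusted p under 0.01.

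The 4 receptors that did not pass at 14 days had fold changes below 0. Epha10, whose kinase domain lacks residues needed for catalysis, had -0.38 ± 0.16 in the authors' deposited table (unadjusted p = 0.0204, adjusted p = 0.0819, interval -0.70 to -0.06). Epha1, best known from epithelia, had -0.21 ± 0.29 in the authors' deposited table (interval -0.77 to 0.35). Epha8 and Epha2 lay close to 0 in the authors' deposited table, at -0.07 ± 0.15 (interval -0.36 to 0.22) and -0.04 ± 0.25 (interval -0.53 to 0.44).

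Markers of other cells moved at 14 days beside the receptors, where 11.5% of all tested genes rose and 9.21% fell. In the authors' deposited table all 12 microglia markers rose (median log2 fold change 1.67), of rod and cone markers 8 of 12 fell (median -0.55), and of Müller glia markers 4 of 8 fell (median -0.40). All 9 blood vessel markers tested had fold changes below 0 (median -0.62) and 2 of them fell, Flt1 and Emcn, in the authors' deposited table. Of 13 ganglion cell markers 3 rose (Pou4f2, Gap43 and Isl1) and 0 fell, with a median of -0.05 in the authors' deposited table. Of 10 amacrine and horizontal cell markers 2 rose, Gad2 and Gad1. Mean normalized counts summed to 3656 for the microglia list, 8615 for the ganglion cell list and 8442 for the 9 receptors in the authors' deposited table. Isl1 alone held 5385 of the ganglion cell sum, so that sum says little about the other ganglion cell markers. The part of these cell types in the EphA changes was not tested, and in sorted pools more cells of a type and more RNA per cell cannot be told apart.

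**Figure D2:**
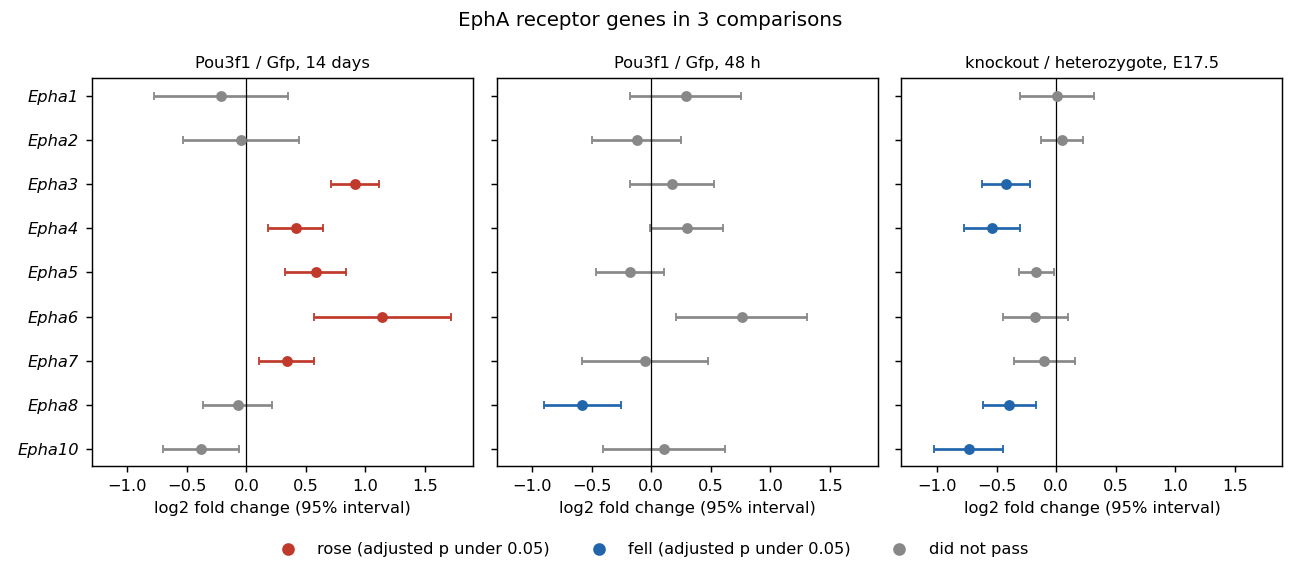
Log2 fold changes of the 9 EphA genes (points) with 95% intervals (bars) for Pou3f1 over Gfp at 14 days (left) and 48 h (middle) and for knockout over heterozygote at E17.5 (right); red points rose, blue points fell and grey points did not pass an adjusted p under 0.05. Epha3 to Epha7 lie right of 0 at 14 days, and Epha3, Epha4, Epha8 and Epha10 left of 0 at E17.5.

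At 48 h, which asks for the early response in the newborn retina, 1 member of the EphA family passed. Of 9 receptors 0 rose, 1 fell and 8 did not pass, where 1.48% of 14714 tested genes rose and 1.56% fell. The receptor that fell was Epha8, the most abundant member per kb at that time, at -0.58 ± 0.16, or 0.669 of the level in Gfp cells, in the authors' deposited table (their adjusted p = 0.0201, interval -0.90 to -0.26). Epha8 no longer passed at an adjusted p under 0.01. Markers of other cells at 48 h leaned the same way in the authors' deposited table: all 6 rod and cone markers tested had fold changes below 0 (median -0.45, 1 fell, Crx), as did all 7 Müller glia markers tested (median -0.35, 0 fell, 5 at an unadjusted p under 0.05). Of 8 blood vessel markers 1 fell (Kdr, -0.63) and 1 had a fold change above 0, in the authors' deposited table. Kdr held 11683 of the mean normalized counts of the 9 listed, which summed to 12453, so its fall may not stand for vessels. Among 5 pigment epithelium markers 1 rose (Best1, mean normalized count 25.6) and 3 had fold changes below 0 (median -0.08), in the authors' deposited table. The part of these cell types in the fall of Epha8 was not tested.

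Epha6 had the highest fold change at 48 h, 0.76 ± 0.28 in the authors' deposited table, and did not pass (unadjusted p = 0.00702, adjusted p = 0.129). Its mean normalized count was 20.8, lower than that of all but 9.35% of tested genes. Epha4 had 0.30 ± 0.16 in the authors' deposited table (unadjusted p = 0.0583, adjusted p = 0.369). The other 6 receptors had log2 fold changes between -0.18 (Epha5) and 0.29 (Epha1) in the authors' deposited table, with intervals that span 0. For Epha5 that interval, -0.46 to 0.11, lies below its 14 day value, and for Epha3 it reached from -0.18 to 0.53.

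The change itself was therefore compared between the times, by a two-sided z test on the 14 day minus the 48 h log2 fold change with the SE of both. Both fold changes are shrunken, and the test makes no allowance for this. Over all tested genes the median SE was 0.199 at 48 h and 0.150 at 14 days, so 48 h values may be drawn harder toward 0. A difference may then be misjudged in size and in adjusted p. Epha5 and Epha3 passed and the other 7 did not, both with a higher fold change at 14 days, where 4.48% of 14580 genes tested at both times were higher and 1.66% lower at 14 days. For Epha5 the fold changes were 0.58 at 14 days and -0.18 at 48 h, a difference of 0.76 ± 0.20 (interval 0.38 to 1.14, adjusted p = 0.00474). For Epha3 they were 0.91 at 14 days and 0.17 at 48 h, a difference of 0.74 ± 0.21 (interval 0.33 to 1.15, adjusted p = 0.0126), which no longer passes at an adjusted p under 0.01. The 2 times differ in age, in cell makeup and in the listed fold change of Pou3f1, and these cannot be told apart here. Whether Pou3f1 was raised less at 48 h is unknown, since both of its fold changes are shrunken. Its mean normalized count over both groups was 37279 at 48 h and 16972 at 14 days, each normalized separately.

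For Epha8 the difference was 0.51 ± 0.22 (interval 0.07 to 0.94) and did not pass (adjusted p = 0.162), so its fall at 48 h is not shown to be particular to that time. Epha4 had log2 fold changes of 0.41 at 14 days and 0.30 at 48 h, with a difference of 0.12 ± 0.20 (interval -0.27 to 0.50). The interval is also wide for Epha6 (difference 0.38 ± 0.41, interval -0.41 to 1.18) and Epha7 (difference 0.39 ± 0.30, interval -0.19 to 0.97). Epha1 and Epha10 had differences of -0.50 ± 0.37 and -0.49 ± 0.31, and Epha2 of 0.08 ± 0.31, with intervals that span 0.

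The E17.5 comparison asks which of these genes depend on Pou3f1 in the embryonic retina. Of 9 receptors 0 rose, 4 fell and 5 did not pass, where 4.70% of 14821 tested genes rose and 5.34% fell. At an unadjusted p under 0.05 the number that rose was still 0. The median log2 fold change was -0.17 over the 9 receptors and 0.00 over all tested genes. The E17.5 table gives no SE. The SE printed for it was computed from the fold change and the deposited p, taken as a two-sided normal p as in the other tables.

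Epha10 fell most, to 0.601 of the heterozygous level, with -0.73 ± 0.15 in the authors' deposited table (their adjusted p = 3.45e-05, interval -1.02 to -0.45). Only 0.553% of tested genes had a lower log2 fold change than Epha10. The largest SE computed for a tested gene in this comparison was 0.174, not far above that of Epha10. Its shrunken value, and the ratio of 0.601, may therefore understate its fall. Epha4 fell to 0.688 of the heterozygous level, with -0.54 ± 0.12 in the authors' deposited table (their adjusted p = 0.000207). Epha3 fell to 0.747 of the heterozygous level, with -0.42 ± 0.10 in the authors' deposited table (their adjusted p = 0.00115).

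Epha8, known in the mouse for a role in axons that cross between the colliculi, fell to 0.761 of the heterozygous level in knockout retinas, with -0.39 ± 0.11 in the authors' deposited table (their adjusted p = 0.00821). Epha5, Epha6 and Epha7 did not pass: Epha5 had -0.17 ± 0.08 (unadjusted p = 0.0260, adjusted p = 0.156, interval -0.32 to -0.02) in the authors' deposited table. For Epha6 the authors' deposited table gives -0.17 ± 0.14 (interval -0.45 to 0.10), and for Epha7 -0.10 ± 0.13 (interval -0.36 to 0.15). Epha2, known from the lens and from epithelia, had 0.05 ± 0.09 in the authors' deposited table (interval -0.12 to 0.22), and Epha1 had 0.00 ± 0.16. No abundance is listed for E17.5, so receptor levels there are unknown.

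Markers of another retinal cell class fell in the same libraries, where 4.70% of all tested genes rose and 5.34% fell. Of 11 amacrine and horizontal cell markers 8 fell and 0 rose in knockout retinas (median log2 fold change -0.62), among them the GABA synthesis genes Gad1 and Gad2, in the authors' deposited table. Of 13 ganglion cell markers 1 rose (Pou4f2) and 1 fell (Pou4f3), with a median of 0.01 in the authors' deposited table. These 2 counts are near the shares of all tested genes. Lens markers moved as well, with 4 of 7 higher in knockout retinas, and 3 of 10 blood vessel markers fell, in the authors' deposited table. Müller glia markers had a median of -0.11: 2 of 8 fell (Kcnj10 and Apoe), and 2 had fold changes above 0. Astrocyte and oligodendrocyte markers had a median of 0.09: 2 of 6 fell (Olig2 and Pax2), and the other 4 had fold changes above 0. Their part in the fall of Epha3, Epha4, Epha8 and Epha10 was not tested.

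Set side by side, the receptors took 4 patterns over the 14 day and E17.5 comparisons, which share no libraries. Epha3 and Epha4 rose with added Pou3f1 at 14 days and fell without Pou3f1 at E17.5. Epha5, Epha6 and Epha7 rose at 14 days, and their E17.5 values of -0.17, -0.17 and -0.10 in the authors' deposited table did not pass. Epha8 and Epha10 fell at E17.5, and their 14 day values of -0.07 and -0.38 in the authors' deposited table did not pass and lie on the same side of 0. At 48 h these receptors differed in call: Epha8 fell, so it was lower both with added Pou3f1 and without Pou3f1, and Epha10 had 0.11 in the authors' deposited table and did not pass. Epha1 and Epha2 passed nowhere. The experiments differ in age, strain and cells (sorted cells against whole retina), and the difference between them was not tested.

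**Figure D3:**
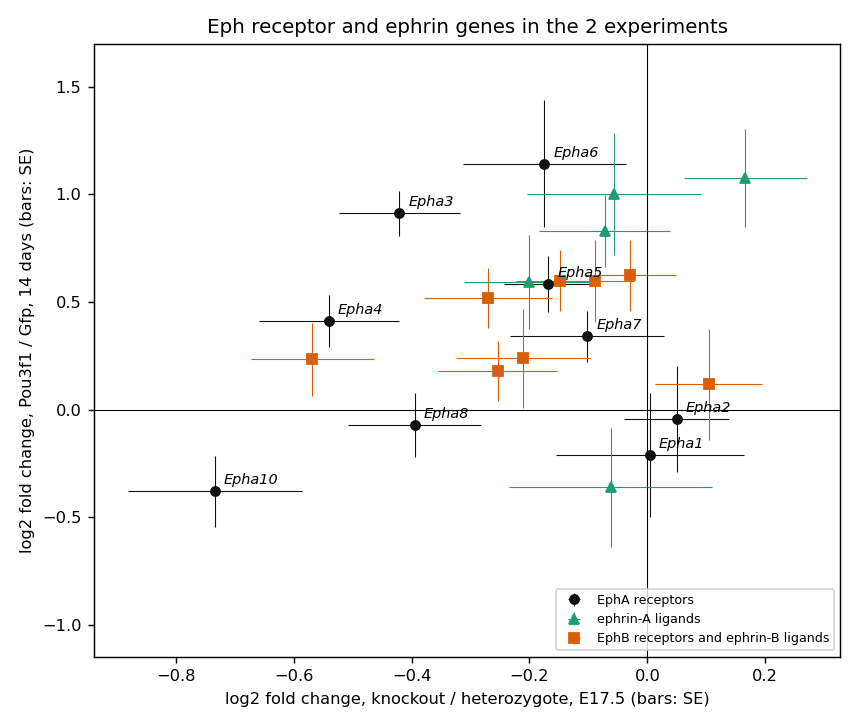
Log2 fold change for Pou3f1 over Gfp at 14 days (y axis) against knockout over heterozygote at E17.5 (x axis), with SE bars, for EphA receptors (black, named), ephrin-A ligands (green) and EphB receptors and ephrin-B ligands (orange). Epha3 and Epha4 sit in the upper left, Epha8 and Epha10 in the lower left.

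At 14 days the receptors divided by the length of their genes. All 5 members that span 100 kb or more rose and 0 of the 4 shorter ones did. Among all tested protein-coding genes of 100 kb or more, 19.8% of 2368 rose at 14 days (median log2 fold change 0.05), against 11.2% of 4574 genes of 30 to 100 kb and 10.5% of 5237 genes of 10 to 30 kb. In knockout retinas 11.6% of 2197 genes of 100 kb or more fell (median -0.07), against 5.95% of 4053 genes of 30 to 100 kb and 3.69% of 4553 genes of 10 to 30 kb. The EphA genes that fell there include both kinds, Epha3 and Epha4 among the long ones and Epha8 and Epha10 among the short ones. After centring on the median of genes in the same bin of span, 4 receptors still rose at 14 days (Epha3, Epha4, Epha5 and Epha6) and 4 still fell at E17.5. The bins of span were chosen after the values were seen.

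**Figure D4:**
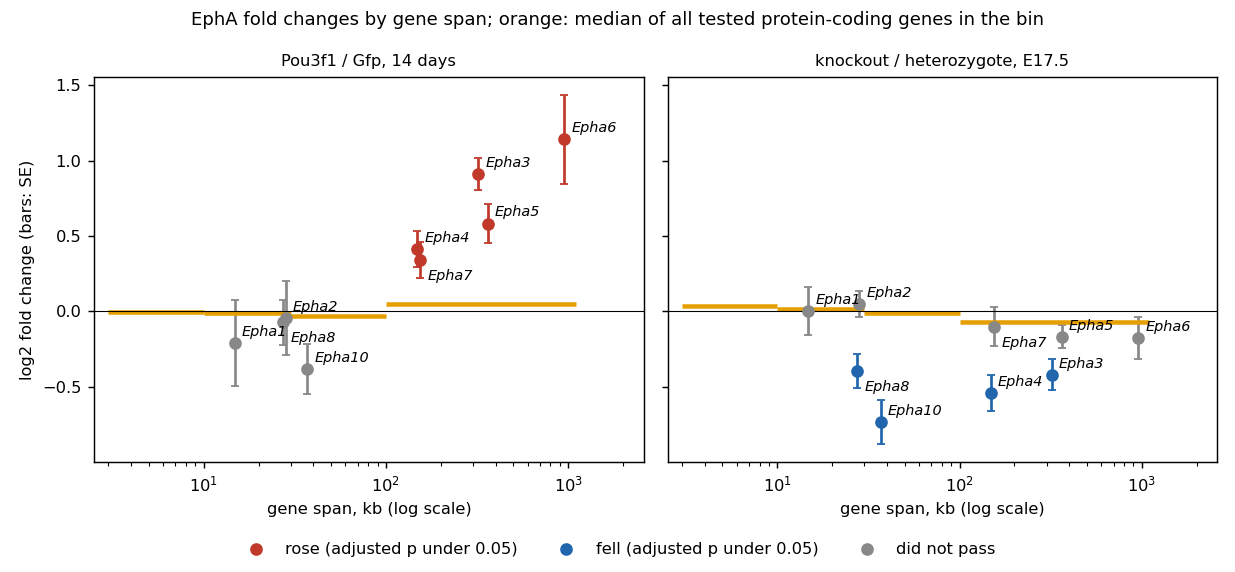
Log2 fold change with SE bars of the 9 EphA genes against gene span in kb (log scale) for Pou3f1 over Gfp at 14 days (left) and knockout over heterozygote at E17.5 (right); orange lines give the median of all tested protein-coding genes in each bin of span, the first bin holding all genes under 10 kb. At 14 days the 5 genes of 100 kb or more lie above 0 and the 4 shorter ones below.

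The ligands and the related B class were read from the same tables, with lists chosen when earlier results of these data were known. Of 5 ephrin-A ligands 4 rose at 14 days, 0 passed at 48 h and 0 at E17.5, also at an unadjusted p under 0.05. Over all tested genes 11.5% rose and 9.21% fell at 14 days, 1.48% and 1.56% at 48 h, and 4.70% and 5.34% at E17.5. The authors' deposited table for 14 days gives log2 fold changes of 0.83 ± 0.17 for Efna2, 1.08 ± 0.23 for Efna4, 1.0 ± 0.28 for Efna3 and 0.59 ± 0.22 for Efna5 (adjusted p between 2.67e-05 and 0.0359). Efna5 encodes a main repellent ligand of the retinocollicular map. The fifth ligand, Efna1, had -0.36 ± 0.28 in the authors' deposited table. The median was 0.83 at 14 days over the 5 ligands, 0.08 at 48 h and -0.06 at E17.5.

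Of 8 EphB receptor and ephrin-B genes 4 rose and 0 fell at 14 days (median log2 fold change 0.38), 0 rose and 1 fell at 48 h (median -0.21), and 0 rose and 1 fell at E17.5 (median -0.18). Of all tested genes 11.5% rose at 14 days, 1.56% fell at 48 h and 5.34% fell at E17.5. A single fall among 8 genes says little about the list. Those that rose at 14 days were Ephb2 (0.60 ± 0.14), Efnb3 (0.62 ± 0.17), Ephb6 (0.52 ± 0.14) and Efnb2 (0.60 ± 0.19) in the authors' deposited table (their adjusted p between 0.000398 and 0.0127). Ephb2 guides ganglion cell axons along the dorsal-ventral axis, and Efnb2 is the midline ligand that turns uncrossed axons away. At 48 h Ephb1, the receptor of uncrossed ganglion cell axons, fell, at -0.83 ± 0.16 in the authors' deposited table (their adjusted p = 5.59e-05). Ephb3 was the one that fell in knockout retinas, at -0.57 ± 0.10 in the authors' deposited table (their adjusted p = 3.82e-06).

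Genes that act downstream of Eph receptors were counted in the same way. Of 28 effectors 11 rose and 1 fell at 14 days (median log2 fold change 0.06), 0 rose and 1 fell at 48 h (median -0.06), and 0 rose and 4 fell at E17.5 (median -0.03). Over all tested genes 11.5% rose and 9.21% fell at 14 days, 1.48% and 1.56% at 48 h, and 4.70% and 5.34% at E17.5; 1 fall among 28 genes is under that share at 14 days and near it at 48 h. At 14 days the kinase genes Src (0.84 ± 0.15) and Fyn (0.47 ± 0.14), the adaptor gene Anks1b (0.94 ± 0.20) and the GTPase gene Rac1 (0.36 ± 0.12) had the smallest adjusted p in the authors' deposited table (between 1.88e-06 and 0.0133). Anks1, a relative of Anks1b whose protein binds Eph receptors, fell at 48 h, at -0.74 ± 0.15 in the authors' deposited table (their adjusted p = 0.000107).

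In knockout retinas Anks1b fell as well, at -0.74 ± 0.13 in the authors' deposited table (their adjusted p = 3.46e-07), the direction of Epha3 and Epha4 at E17.5 and at 14 days. At 48 h Anks1b had -0.54 in the authors' deposited table and did not pass (unadjusted p = 0.0199), while Epha3 and Epha4 had 0.17 and 0.30. Arhgef15 at -0.65 ± 0.13 and Kalrn at -0.34 ± 0.08, both exchange factor genes, also fell in the authors' deposited table (their adjusted p between 3.09e-05 and 0.000307). Other exchange factor genes of the list did not pass in knockout retinas, with 0.22 for Ngef, -0.09 for Vav2, -0.09 for Vav3 and -0.18 for Tiam1 in the authors' deposited table. Pik3r1, a regulatory subunit of phosphoinositide 3-kinase, had -0.38 ± 0.09 in the authors' deposited table (their adjusted p = 0.00112). Of 10 genes that cleave, dephosphorylate or degrade Eph receptors and ephrins, 1 rose at 14 days, near the 11.5% of all tested genes, and 0 passed at 48 h or at E17.5 (0 and 2 at an unadjusted p under 0.05). The gene that rose was Ptpro, whose phosphatase product dephosphorylates Eph receptors, at 1.80 ± 0.18 in the authors' deposited table (their adjusted p = 4.27e-21).

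Genes that set up position in the retina, where EphA gradients are laid down, were counted next. Of 16 patterning genes 2 rose and 0 fell at 14 days, 1 rose and 0 fell at 48 h, and 1 rose and 1 fell at E17.5. At 14 days (11.5% of all tested genes rose) and at E17.5 (4.70% rose and 5.34% fell) these counts are near the share of all tested genes. For 48 h the shares were 1.48% that rose and 1.56% that fell, and a single rise among 16 genes says little about the list. At 14 days Tbx2 (0.58 ± 0.19) and Nr2f2 (0.32 ± 0.12) rose in the authors' deposited table (their adjusted p between 0.0169 and 0.0488), both genes of dorsal or regional identity factors. At 48 h Nr2f1 rose by 0.69 ± 0.16 in the authors' deposited table (their adjusted p = 0.00182). In knockout retinas the dorsal signal gene Bmp4 fell, at -0.76 ± 0.17, and the ventral retinoic acid enzyme gene Aldh1a3 rose, at 0.19 ± 0.06, in the authors' deposited table (their adjusted p between 0.000234 and 0.0161).

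Of 17 other genes of retinal mapping 7 rose and 1 fell at 14 days, 1 rose and 1 fell at 48 h, and 0 rose and 4 fell at E17.5. Over all tested genes 11.5% rose and 9.21% fell at 14 days, 1.48% and 1.56% at 48 h, and 4.70% and 5.34% at E17.5. The single fall at 14 days is not above that share. At 14 days Gfra1 (1.76 ± 0.16), Alcam (1.57 ± 0.24), Ngfr (-0.54 ± 0.11) and Wnt3 (1.22 ± 0.27) had the smallest adjusted p in the authors' deposited table (between 5.22e-25 and 0.000243). Ngfr encodes the neurotrophin receptor p75, which also works with ephrin-A proteins on axons, and was lower at 48 h too (-0.87 ± 0.16 in the authors' deposited table, adjusted p = 1.01e-05). Alcam, a cell adhesion gene, rose at 48 h too, at 1.67 ± 0.26 in the authors' deposited table (their adjusted p = 1.58e-07). In knockout retinas the genes that fell were the nicotinic receptor genes Chrnb2 (-0.37 ± 0.08) and Chrna6 (-0.57 ± 0.17), the neurotrophin gene Bdnf (-0.35 ± 0.11) and the repulsive guidance gene Rgma (-0.31 ± 0.11) in the authors' deposited table (their adjusted p between 5.41e-05 and 0.0366).

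**Figure D5:**
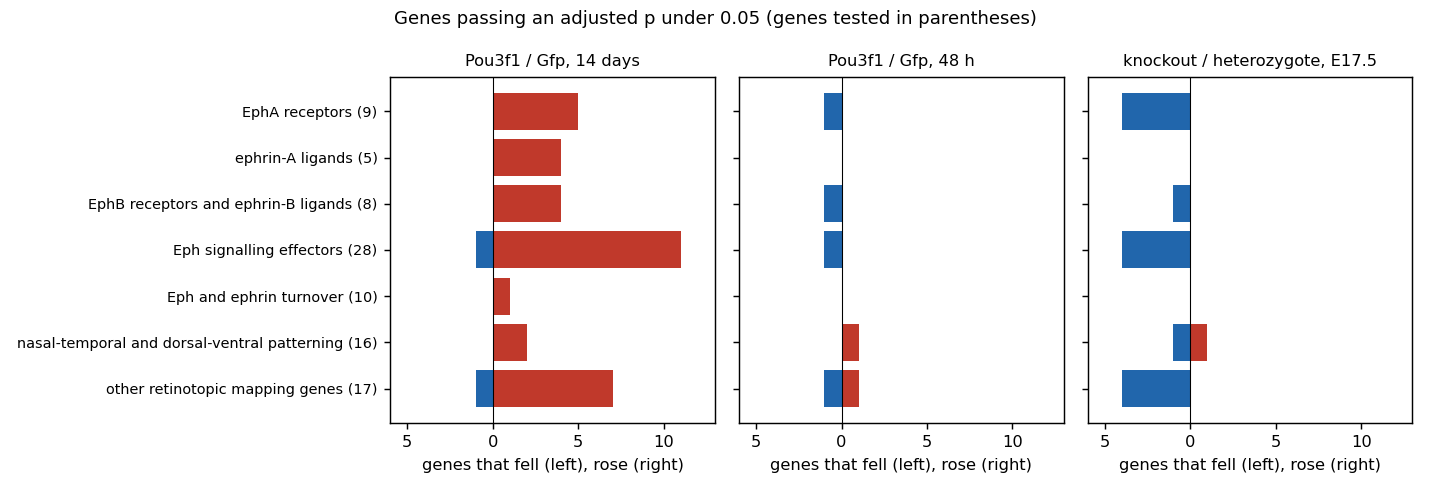
Number of genes that rose (red, right of 0) or fell (blue, left of 0) at an adjusted p under 0.05 in the EphA family and 6 related lists, with the number tested in parentheses, for 14 days (left), 48 h (middle) and E17.5 (right). The EphA bar reaches 5 to the right at 14 days and 4 to the left at E17.5.

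Genes whose 3 log2 fold changes lay closest to those of each EphA gene that passed somewhere were sought among 13156 of the 14002 genes tested in all 3 tables (predicted and numbered genes left out), by Euclidean distance over the 3 comparisons. With only 3 points per gene this is a description. Epha3 lay closest to Lrrn3, Fmn2 and Rnd3 (distance 0.0864 to 0.115 on the log2 scale). Epha4 lay closest to Celf4, Lair1 and Adgrb3 (0.0282 to 0.168). Epha5 had Dpysl5, Gdf10 and Ralgds nearest (0.0165 to 0.0396), and Epha7 had Hjv, Plxnb2 and Ptx3 (0.0239 to 0.0289). Epha6 had Ncam2, Fgf10 and Lmo4 (0.0726 to 0.177). Nearest to Epha8 were Psd2, Slc6a5 and Fam53b (0.0326 to 0.0934). For Epha10 they were Megf11, Arhgef15 and Slc13a4 (0.122 to 0.166), and Arhgef15 is the effector gene named above.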

How the data were processed

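RNA-seq of 19 mouse retina libraries in 6 groups was read from 3 tables, each 1 comparison made by the authors. Per the submitters' processing notes the tools named are Salmon, DESeq2 and MACS2 with the mm10 build; the sources used here give no versions, annotation or design formula. The deposited log2 fold changes are shrunken toward 0, per the values. The deposited signal is the mean normalized count, per the file headers. The Wald score and the SE, given as a score in the overexpression tables per the file headers, fit together: fold change over SE differs from the listed score by at most 4.45e-07. The deposited p-value was adjusted by the authors by Benjamini-Hochberg over genes above an abundance limit, which was recomputed to within 5.60e-06.

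Calls were made where the deposited adjusted p was under 0.05. No fold change within a table was refitted, since the tables hold comparison results only. The 14 day and 48 h fold changes were compared by a z test adjusted over all genes. Intervals are 95% normal intervals. Alternatives tried were a limit of 0.01, 2-fold, a mean count of at least 10, median centring and adjustment that includes the genes left out. All 9 members are named, with Pou3f1, up to 4 called genes per list and comparison, and the 3 likest genes per called member. Cell type markers, levels and gene span are named by list or chosen after values were seen. Members and lists were chosen with earlier results of these data known. Scripts, tested on simulated data, ran in Python 3.11.15 (numpy 2.4.6, scipy 1.17.1, pandas 2.3.3) with plots by matplotlib 3.10.9. Of the table's gene identifiers 99.4% to 99.7% were found in GENCODE M21, which together with RefSeq gave positions, lengths and upstream sequences.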

Additional observations from a re-analysis of the deposited data

Results flagged for a closer look

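The change of Epha5 with added Pou3f1 differed between 14 days and 48 h by 0.76 on the log2 scale, and that of Epha3 by 0.74, each by a z test of the difference itself (adjusted p = 0.00474 and 0.0126). Both rose at 14 days and did not pass at 48 h. The test makes no allowance for the shrinkage of the fold changes, which may be stronger at 48 h. The median difference was 0.38 over the 9 receptors and 0.03 over all genes tested at both times.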

How the results depend on the processing

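No paired analysis was possible because the tables hold 1 value per gene and comparison, so neither a replicate block nor leaving out a library could be tried. The tables limit precision further: abundance is unknown at E17.5, and Epha1 and Epha6 have few reads. Single receptors kept their call, or their lack of one, in 164 of 177 comparisons of a receptor with an alternative, 13 lost it and 0 gained one. The limits of 0.01 and 2-fold can only remove calls, so under them a receptor without a call stayed the same by construction. Centring within bins of gene span turned the sign of 2 receptors that passed in neither case, Epha7 at 48 h (0.05 instead of -0.05) and Epha1 at E17.5 (-0.01 instead of 0.00). At an adjusted p under 0.01, 0 receptors were called at 48 h (1 otherwise), 17 instead of 31 genes of the 6 related lists at 14 days, 7 instead of 11 at E17.5, and 1 receptor, Epha5, differed between times instead of 2. With a 2-fold limit as well, 1 receptor (Epha6) was called at 14 days instead of 5, 0 at 48 h instead of 1, and 0 at E17.5 instead of 4, while the related lists had 6, 1 and 0 calls instead of 31, 5 and 11; these follow from the stricter limits. Adjustment over all genes, a mean count of at least 10 (14 days and 48 h) and centring on the median of all genes changed no receptor's call. The related lists did change: adjustment over all genes gave 25 calls instead of 31 at 14 days and 10 instead of 11 at E17.5. A mean count of at least 10 gave 32 at 14 days, and centring within bins of gene span gave 28. Centring within bins of gene span, added after seeing the data, left 4 receptors called at 14 days, since Epha7 no longer passed. Per kb of coding sequence instead of transcript, the order of the 9 levels was the same at both times.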
